A study of Caenorhabditis elegans with 6 samples.

Results

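The cytosolic ribosomal protein genes of *Caenorhabditis elegans* were taken as all genes in the deposited tables whose name is *rpl-* or *rps-* followed by a number, and whose normalized reads reached 10 in 2 or more libraries of a table. The rule gave 76 genes in each table, of 15918 genes tested for *hlh-30* overexpression and 15749 tested for *hlh-30* knockout. All 76 listed genes passed the minimum. The 45 *rpl* genes, named for the large ribosomal subunit, are counted as large subunit genes, including *rpl-24.2*, which RefSeq names after an assembly factor. The 31 *rps* genes are counted as small subunit genes.

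RNA of whole worms on adult day 1 was sequenced from 3 groups of 2 libraries each. The paper states that the worms for sequencing were grown to young adults and then kept at a raised temperature to induce Aβ. The overexpression worms (*hlh-30* ox) carried an *hlh-30*p::*hlh-30*::GFP transgene, driven by the gene's own promoter, in an Aβ background that the labels name GMC101. The knockout worms (*hlh-30* ko) carried *hlh-30(syb6883)*, in which the first 4 exons were removed, together with *dvIs100*, the integrated Aβ transgene of GMC101. The control worms, given the genotype WT in the labels, were the Aβ strain GMC101 and so also carried a transgene, in which the body wall muscle promoter *unc-54*p drives Aβ1–42 and *mtl-2*p drives GFP. All 3 groups therefore carried an Aβ transgene. The series description names CL4176 as the parent, whereas the labels of the libraries name GMC101. The labels do not say whether the libraries of a group came from separate cultures, so the p-values measure the spread between these libraries, which may be technical. The columns of the ko libraries could not be tied to single samples, so these libraries are called a and b.

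Each library held 18097925 to 19300834 reads on genes, and the same control libraries served both comparisons. *hlh-30*, which encodes the worm counterpart of the transcription factor TFEB, had 6022 and 5693 normalized reads in the ox libraries, against 3102 and 3315 in the control libraries (limma log2 fold change 0.87, adjusted p = 3.97e-06). It had 2104 and 3005 in the ko libraries, against 3049 and 3258 in the control libraries as scaled in that table (limma log2 fold change -0.33, adjusted p = 0.511). Reads were counted over the whole gene, so these values do not check the deletion. *rol-6*, a cuticle collagen gene whose mutant copy (pRF4) is listed by the study for CL4176 and for strains with an *lgg-1* reporter but not for GMC101, had 1030 and 1012 normalized reads in the ox libraries, against 31.7 and 14.2 in the control libraries, and 15.3 and 39.8 in the ko libraries, against 31.2 and 13.9 in the control libraries. Which strain gave the ox libraries was not settled here, and a difference in parent strain or other transgenes and the overexpression cannot be told apart in any ox value below. Between the libraries of a group, reads differed by more than sampling noise, with a median chi-square per gene of 1.71 in ox, 7.23 in ko and 1.51 in control. Over the ribosomal protein genes these medians were 20.4 in ox, 21.5 in ko and 5.60 in control.

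A ribosome is built from a small subunit, which reads the messenger RNA, and a large subunit, which joins the amino acids. Each subunit holds ribosomal RNA and its own set of proteins, needed in equal numbers, so that cells usually make these proteins in step. In worms the germline and the growing tissues are rich in ribosomes, and TOR signaling through the kinase RSKS-1 is a known regulator of ribosome production.

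In control worms most ribosomal protein genes lay within a narrow band of level. The median over the control libraries was 33985 normalized reads per kb of gene length for the large subunit genes and 39883 for the small subunit genes. Of the 76 genes, 63 lay between 20000 and 60000 normalized reads per kb, and 35 of the 50 genes with the highest levels per kb in the whole table were members of the family. The highest were *rpl-10*, whose protein joins the large subunit late in its assembly, with 64415 normalized reads per kb, and *rps-8* with 60687. The lowest small subunit gene was *rps-29*, which encodes a small zinc-binding protein, with 11674 normalized reads per kb.

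A few large subunit genes lay far below the band. *rpl-42* had 52.1 and *rpl-37* 84.9 normalized reads per kb in control worms. The name *rpl-37* belongs to a gene that RefSeq calls *rpl-37.2*, while *W01D2.1*, which RefSeq calls *rpl-37.1*, had 12004 and 11547 normalized reads in the control libraries. *rpl-37* also overlaps *pitp-1* on the other strand, which had 523 normalized reads in control worms against 30.1 for *rpl-37*, and strand-specific counting is not stated, so the reads of *rpl-37* are uncertain. *rpl-39*, which encodes a protein of the exit tunnel and is the shortest gene of the family at 247 bp, had 3605 normalized reads per kb. Across the 76 genes, level per kb and gene length had a Spearman correlation of 0.30, a description over genes that share the same control libraries.

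**Figure D1:**
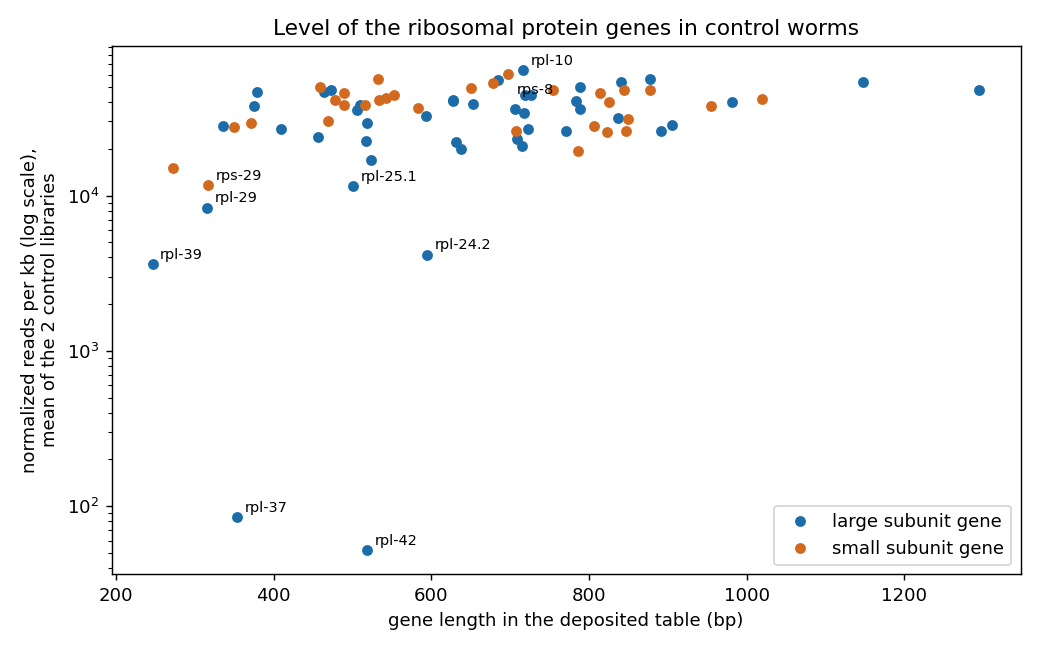
Level of each of the 76 ribosomal protein genes in control worms (normalized reads per kb, mean of the 2 control libraries, log scale) against the gene length in the deposited table (bp), for large and small subunit genes. Most genes sit between 20000 and 60000 normalized reads per kb, with *rpl-42* at 52.1 and *rpl-37* at 84.9 far below.

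The question of the first comparison was whether added *hlh-30* was accompanied by a change in the ribosomal protein genes, and whether both subunits changed alike. In ox worms 53 of the 76 genes were lower than in control worms and 0 were higher, judged by limma at an adjusted p under 0.05 (Benjamini-Hochberg, across the whole table, as for every adjusted p here). None was higher at an unadjusted p under 0.05 in limma, or in edgeR or DESeq2. Of all genes tested, 8.06% were called lower and 6.71% higher. Among genes averaging 1000 or more normalized reads, the range that holds 73 of the family, 23.9% were called lower. The lower genes comprised 29 of 45 large subunit genes and 24 of 31 small subunit genes. The change was small. The median log2 fold change was -0.20, a level 0.872 times that of control worms, and none of the 76 reached the 2-fold change of the study's own criterion, which 1.86% of all genes did.

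The libraries of ox and control worms did not overlap for 71 genes that were lower and for *rpl-37*, which was higher, while 4 genes overlapped (*rpl-25.1*, *rpl-29*, *rpl-39* and *rpl-42*). Among all genes tested, 29.4% were lower without overlap and 27.9% higher, and 55% were lower among those averaging 1000 or more normalized reads. On the log2 scale, the median deviation of the 76 genes from the control mean was -0.16 in ox library 1 and -0.23 in ox library 2, against -0.0012 and 0.0012 in the control libraries. Both ox libraries thus lay below both control libraries, and the second lay lower than the first.

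**Figure D2:**
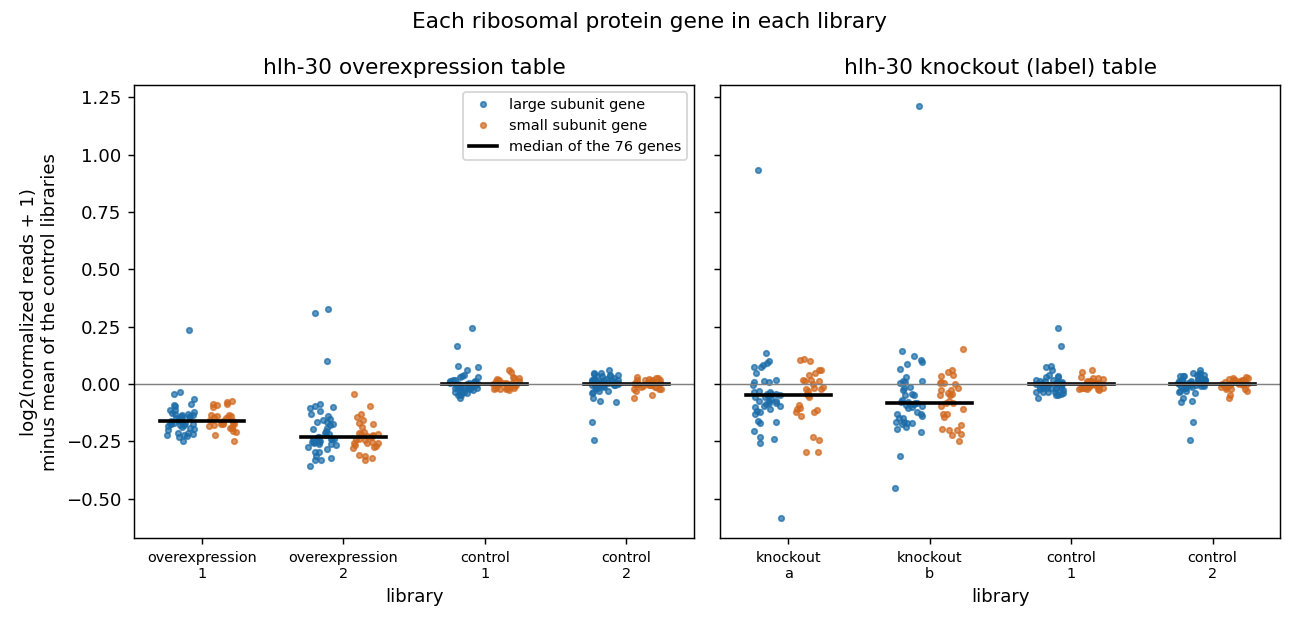
Difference of each ribosomal protein gene from the mean of the control libraries (log2 of normalized reads plus 1) in every library, in the overexpression table (left) and the knockout table (right). Points are single genes and black bars are medians of the 76 genes, which were -0.16 and -0.23 in the ox libraries, -0.05 and -0.08 in the ko libraries and near 0 in the control libraries.

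Among the large subunit genes, *rpl-17*, whose protein lines the exit tunnel of the ribosome, had 22108 and 20159 normalized reads in the ox libraries, against 25917 and 25746 in the control libraries. In limma this was -0.29 ± 0.05 SE on the log2 scale (adjusted p = 0.00282), the lowest value of the 76 genes. *rpl-4*, another tunnel protein gene, had 53453 and 48880 normalized reads in ox libraries, against 61623 and 61363 in control libraries. Both ox values were below both control values (limma log2 fold change -0.27 ± 0.05 SE, adjusted p = 0.00388).

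*rpl-7* had 38275 and 37316 normalized reads in ox libraries, against 45745 and 45211 in control libraries (limma log2 fold change -0.27 ± 0.04 SE, adjusted p = 0.00181). *rpl-18* had 27442 and 25474 normalized reads in ox libraries, against 30932 and 32731 in control libraries (limma log2 fold change -0.27 ± 0.05 SE, adjusted p = 0.00440). Both genes encode core proteins of the large subunit. *rpl-10*, with the highest level per kb, had 40879 and 39090 normalized reads in ox libraries, against 46422 and 45949 in control libraries, which limma gave as -0.21 on the log2 scale (adjusted p = 0.00848).

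Among the small subunit genes, *rps-6*, whose protein is the substrate for which S6 kinase is named, had 27714 and 26165 normalized reads in the ox libraries, against 33182 and 32625 in the control libraries. In limma this was -0.29 ± 0.05 SE on the log2 scale (adjusted p = 0.00168), with the smallest adjusted p of the family. In the deposited tables *rps-6* lies on chromosome I from 13952158 to 13953194 on the plus strand, and *rpl-17* on chromosome I from 1156577 to 1157462 on the plus strand. The genome build of these positions is not given in the sources used here. *rps-8* had 38147 and 36313 normalized reads in ox libraries, against 41640 and 42958 in control libraries, which limma gave as -0.18 on the log2 scale (adjusted p = 0.0178). *rps-29* did not pass the test, with 3481 and 3587 normalized reads in ox libraries, against 3685 and 3717 in control libraries (limma log2 fold change -0.07, adjusted p = 0.471).

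In 3 paralog sets, 2 genes share a stem name, and reads of near-identical stretches may be split between them. *rpl-11.1*, which encodes a protein that contacts the 5S ribosomal RNA, had 22749 and 21519 normalized reads in ox libraries, against 25761 and 25096 in control libraries, and was lower (limma log2 fold change -0.20, adjusted p = 0.0134). Its copy *rpl-11.2* had 13547 and 13881 in ox libraries, against 14678 and 15097 in control libraries, and did not pass (limma log2 fold change -0.12, adjusted p = 0.111). The difference between the copies was not tested.

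*rpl-24.1* had 21910 and 20984 normalized reads in ox libraries, against 25896 and 24883 in control libraries, and was lower (limma log2 fold change -0.24, adjusted p = 0.00463). *rpl-24.2*, the assembly factor gene *rsl-24D1* in RefSeq, had 2272 and 1993 in ox libraries, against 2473 and 2486 in control libraries (limma log2 fold change -0.22, adjusted p = 0.0562). *rpl-24.2*, with fewer reads, did not pass. *rpl-25.1* had 5579 and 5408 normalized reads in ox libraries, against 5573 and 5928 in control libraries, so its groups overlapped (limma log2 fold change -0.07, adjusted p = 0.470). *rpl-25.2* had 10521 and 10532 in ox libraries, against 11385 and 11688 in control libraries (limma log2 fold change -0.13, adjusted p = 0.0811).

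The 3 genes with a positive log2 fold change in ox worms were *rpl-29* (0.02), *rpl-42* (0.14) and *rpl-37* (0.27), and none passed the test. *rpl-37* had 35.5 and 37.4 normalized reads in ox libraries, against 31.7 and 28.4 in control libraries, and *W01D2.1* had 10231 and 9502 in ox libraries, against 12004 and 11547 in control libraries. *W01D2.1* was lower (limma log2 fold change -0.26, adjusted p = 0.00643).

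The genes moved evenly. The log2 fold changes of the 76 genes had a standard deviation of 0.084, and 70 of them lay within 0.1 of their median. Over the 73 genes with a mean of 1000 or more normalized reads the standard deviation was 0.055, against 0.233 over all genes of that level. The range of the 53 called genes was from -0.29 to -0.15. The large and small subunit genes had medians of -0.19 and -0.20, and the median of the large minus that of the small subunit genes was 0.0052. As a value free of scaling, the log2 ratio of all large to all small subunit reads was 0.387 and 0.395 in the ox libraries, against 0.392 and 0.406 in the control libraries (exact two-sided permutation p = 0.667, where 2 libraries against 2 cannot give less than 0.333).

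**Figure D3:**
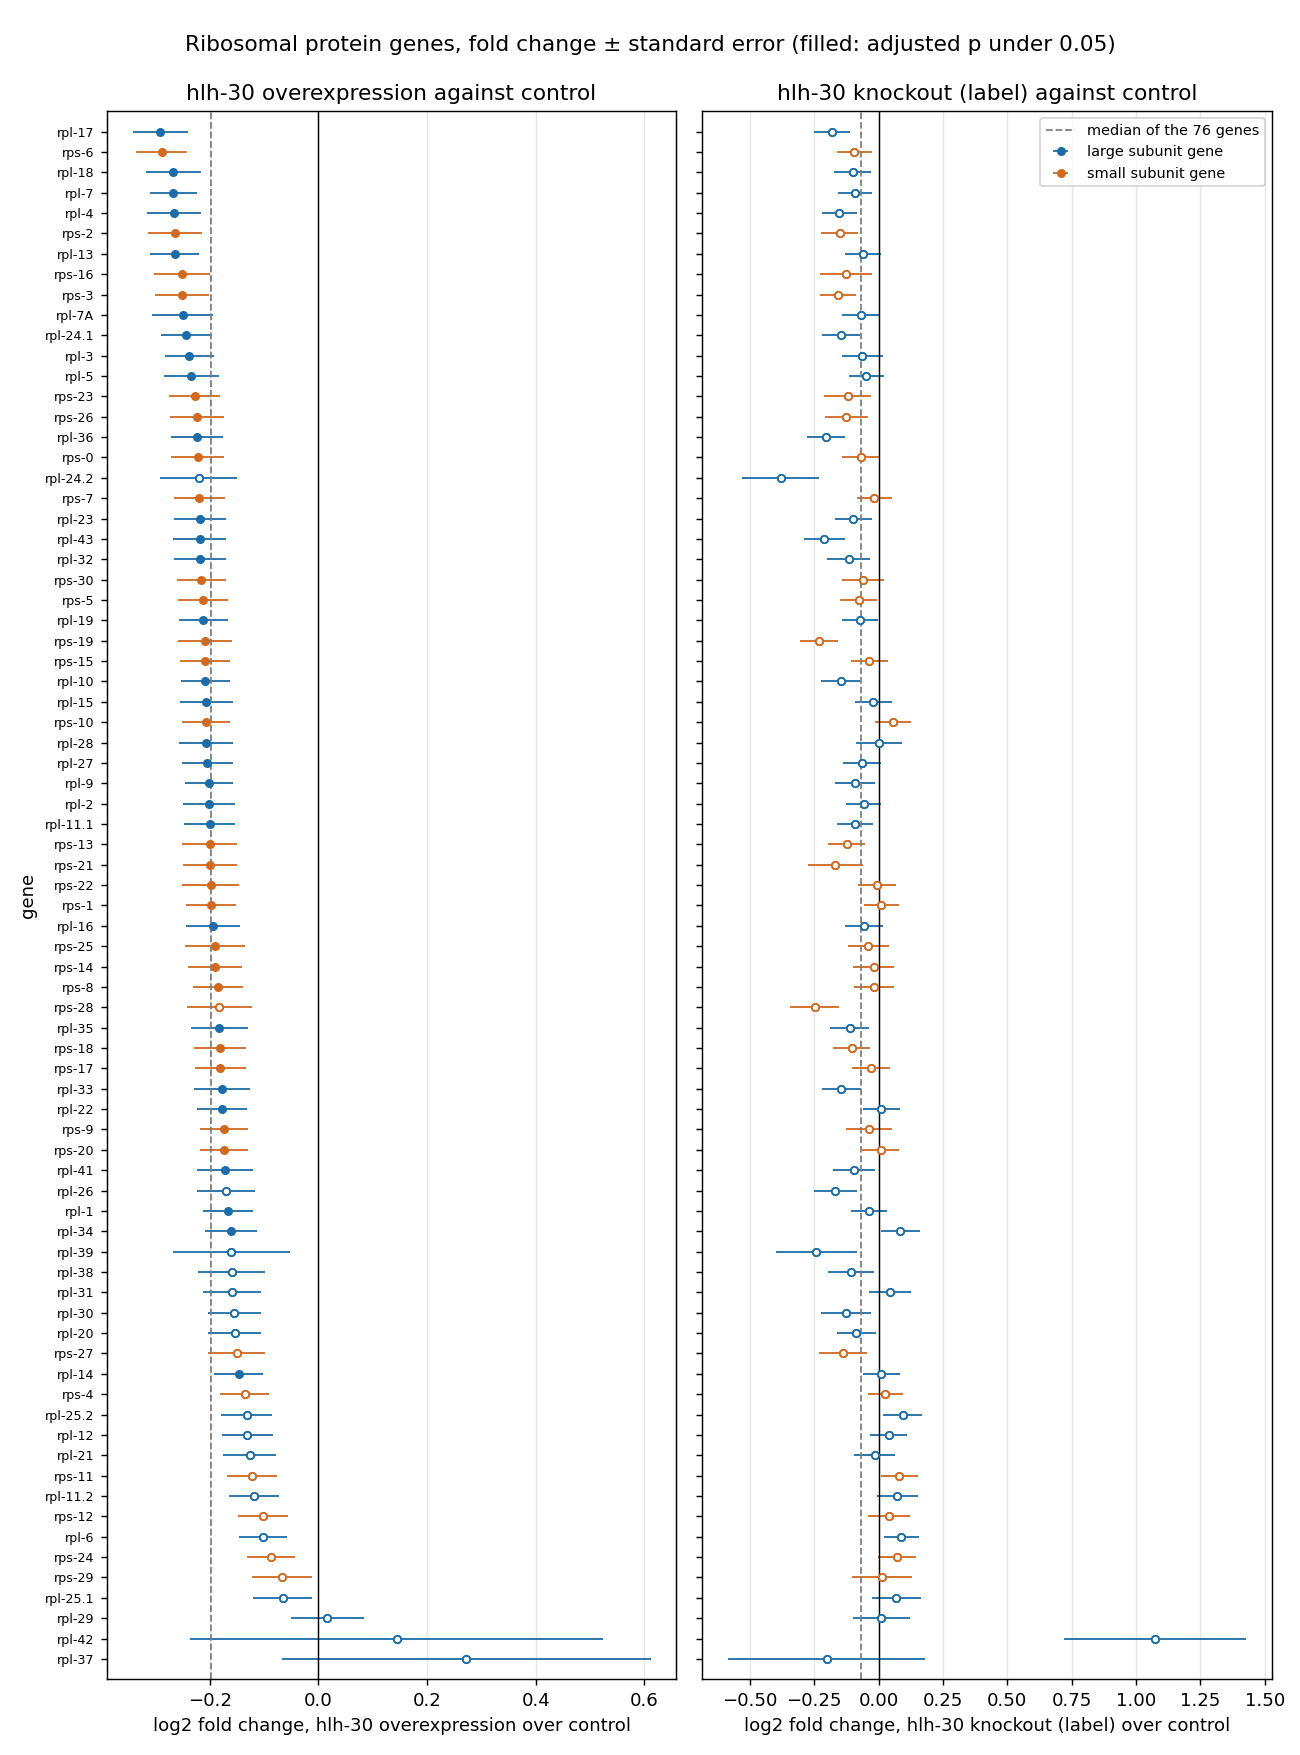
Log2 fold change and standard error (bars) of each ribosomal protein gene in *hlh-30* ox (left) and *hlh-30* ko worms (right) over control, ordered by the ox value. Filled points passed an adjusted p under 0.05 in limma, the dashed line is the median of the 76 genes (-0.20 in ox, -0.07 in ko), and 70 of the 76 points of the left panel lie within 0.1 of that line.

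Many other very abundant genes were lower in ox worms too. With the deposited size factors, genes with a mean of 10000 or more normalized reads were compared, a floor chosen after the data were seen. Of these, 52 of 65 ribosomal protein genes (80.0%) and 93 of 180 other genes (51.7%) were called lower, with median log2 fold changes of -0.20 and -0.17. The standard deviations were 0.046 for the ribosomal protein genes and 0.200 for the others. Within the family, the fold change went with the level (Spearman correlation of -0.52 over 76 genes, a description, with the same libraries behind both measures). It was -0.59 over the 45 large subunit genes and -0.26 over the 31 small subunit genes. Within the family the correlation of fold change with gene length was -0.33, over the same genes and libraries. Of 1065 genes outside the family with a mean of 1000 or more normalized reads and no longer than the longest member (1295 bp), 271 were lower and 43 higher, with a median of -0.13. Of 214 such genes longer than 5000 bp, 33 were lower and 68 higher, with a median of 0.05. The part of level and length in the values of the family was not tested.

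The share of all reads on genes that fell on the 76 genes was 8.77% and 8.43% in the ox libraries, against 9.31% and 9.32% in the control libraries (exact two-sided permutation p = 0.333, the smallest that 2 libraries against 2 allow). Both ox libraries were below both control libraries. The count of lower genes depended on the scaling. When libraries were scaled to their total reads in place of the deposited size factors, 11 of the 76 genes (14.5%) were lower and 0 higher, and the median was -0.11. Of the 180 other genes with a mean of 10000 or more normalized reads, 48 (26.7%) were then lower and 14 higher, with a median of -0.08. Under total-read scaling the family thus no longer had a larger share of lower genes than these others. With TMM scaling 52 of the 76 genes were lower, but these others were not compared there. Total-read scaling called 531 genes lower and 1592 higher in all, whereas the deposited scaling called 1283 lower and 1068 higher. Total-read scaling moved the median of all genes by about 0.09 on the log2 scale. The 11 were *rpl-17*, *rps-6*, *rpl-18*, *rpl-7*, *rpl-4*, *rps-2*, *rpl-13*, *rps-16*, *rps-3*, *rpl-24.1* and *rpl-3*. With 1 control library in place of 2, 0 genes passed in limma without control replicate 1 and 0 without control replicate 2 (lower at an unadjusted p under 0.05 were 45 and 38). In these fits 0 of all genes tested passed.

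**Figure D4:**
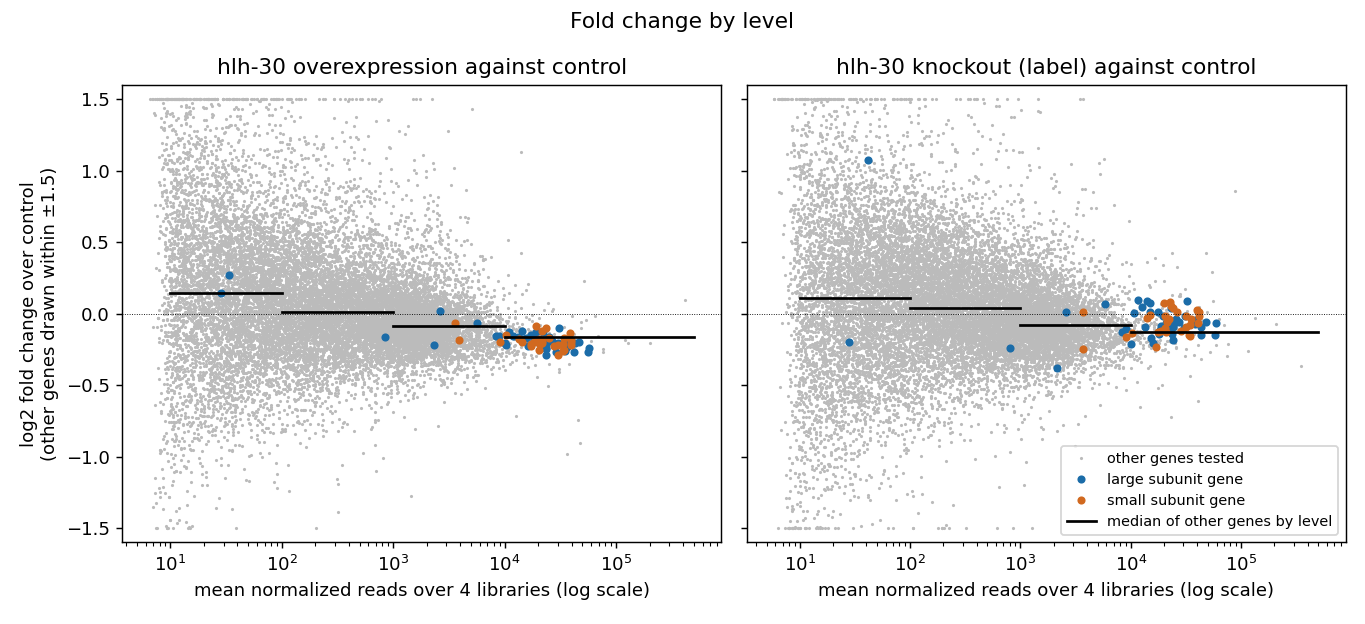
Log2 fold change against the mean normalized reads (log scale) of all genes tested, for *hlh-30* ox (left) and *hlh-30* ko (right) over control, with the ribosomal protein genes in color and other genes in grey. Black lines mark the median of other genes in bins of level. In the left panel the ribosomal protein genes lie near -0.20, close to the line of other genes with at least 10000 normalized reads (-0.17).

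Ribosomal protein genes that the name rule leaves out were followed beside the 76. The stalk protein genes *rla-0*, *rla-1* and *rla-2*, whose products recruit translation factors to the large subunit, had log2 fold changes in ox worms of -0.16, -0.13 and -0.32. Of these *rla-0* (adjusted p = 0.0417) and *rla-2* (adjusted p = 0.00394) passed in limma and *rla-1* (adjusted p = 0.0636) did not. The ubiquitin fusion genes *ubl-1* and *ubq-2*, whose products are cut into ubiquitin and a ribosomal protein, had log2 fold changes of -0.29 (adjusted p = 0.00635) and -0.16 (adjusted p = 0.0310) in limma. Of genes that RefSeq alone names as ribosomal, *Y37E3.8* (RefSeq *rpl-27A*) was lower (limma log2 fold change -0.20, adjusted p = 0.0147), while *F54D7.6* and *F54D7.7*, both copies of *rpl-41* in RefSeq, had -0.09 and 0.03 and did not pass.

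Other genes of translation were followed through lists chosen with earlier results of these data known. Beside the counts of these lists stand 8.06% lower and 6.71% higher of all genes tested in ox worms. Among genes averaging 1000 or more normalized reads, 23.9% were lower. Of 8 elongation genes tested, 4 were lower in ox worms and 0 higher, with *eef-1A.1*, which encodes the factor that carries aminoacyl-tRNA to the ribosome, at 191151 and 181615 normalized reads in ox libraries, against 213051 and 216683 in control libraries (limma log2 fold change -0.21, adjusted p = 0.0103). Its reads are uncertain, since a near-identical copy exists in worms. *eef-1A.2*, which shares its stem name, had 21002 and 19063 in ox libraries, against 20614 and 21708 in control libraries. It overlapped and did not pass (limma log2 fold change -0.08, adjusted p = 0.367). The other elongation genes named by the rule were *eef-1B.2* (-0.23) and *iff-2* (-0.25), both lower. Of 23 initiation genes tested, 15 were lower and 0 higher, with a median of -0.24, and the named genes were *eif-3.B* (-0.38), *iffb-1* (-0.34) and *eif-3.D* (-0.31), the first and last encoding subunits of the factor that brings the small subunit to messenger RNA.

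Of 26 ribosome biogenesis genes tested, 10 were lower and 1 was higher. The lower ones included *nol-6* (-0.43), *riok-2* (-0.32), a kinase of small subunit maturation, and *nol-5* (-0.28), a nucleolar protein gene, and the higher one was *nst-1* (0.19), nucleostemin. Among 7 translation regulators 3 were lower and 1 higher. *rsks-1*, the S6 kinase, had 4212 and 4202 normalized reads in ox libraries, against 5350 and 5282 in control libraries (limma log2 fold change -0.34, adjusted p = 0.00136). *let-363*, which encodes TOR, had 3921 and 4373 in ox libraries, against 3164 and 3241 in control libraries, and was higher (limma log2 fold change 0.37, adjusted p = 0.00235). *rack-1*, a scaffold on the small subunit, was lower at -0.25 (adjusted p = 0.00310 from limma). Scaled to total reads, 0 elongation genes were lower, 9 initiation genes were lower, 6 biogenesis genes were lower and 2 higher, and 2 regulators were lower and 1 higher. Total-read scaling called 3.35% of all genes lower and 10% higher.

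Markers of tissues moved with the ox libraries. Of all genes tested, 8.06% were lower and 6.71% higher, and 23.9% were lower among those averaging 1000 or more normalized reads. Of 10 germline markers 5 were lower and 0 higher, with summed levels of 55119 and 54581 normalized reads in ox libraries, against 63618 and 60905 in control libraries. Of 7 sperm markers tested 4 were lower, with sums of 3202 and 3468 over the list in ox libraries, against 5236 and 4367 in control libraries. Of 8 intestine markers 4 were higher, of 7 body wall muscle markers 3 were lower and 2 higher, and of 8 oocyte markers 2 were lower. Of the neuron and epidermis lists 1 marker each was higher, *rol-6* being the epidermal one, and no embryo or pharynx marker passed. Scaled to total reads, 4 germline, 4 sperm and 0 oocyte markers were lower, and 5 intestine, 3 neuron, 1 embryo and 1 pharynx markers were higher. Of all genes, 3.35% were lower and 10% higher under total-read scaling. Muscle and epidermis counts were the same under that scaling. No marker on these lists was at 0 in every library. Their part in the ribosomal protein values was not tested, and in whole worms fewer cells of a type and less RNA per cell cannot be told apart.

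The second comparison asked the same of worms labelled *hlh-30* knockout. In these worms 0 of the 76 genes passed in limma in either direction, and 0 passed in edgeR or DESeq2. None reached the 2-fold criterion with an adjusted p under 0.05, which 0.0127% of all genes tested did. At an unadjusted p under 0.05 in limma, 6 were lower and 1 higher, beside 5.11% and 5.87% of all genes tested. Of all genes tested, 0.00635% were called lower and the same share higher. Over the 76 genes the median was -0.07 on the log2 scale, with -0.07 for the large and -0.04 for the small subunit genes, and 56 of 76 values were negative. The genes with a mean of 1000 or more normalized reads had a median of -0.08. At a mean of 10000 or more, the median was -0.06 over 65 ribosomal protein genes and -0.13 over 171 other genes.

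The libraries did not overlap for 42 genes that were lower and 10 that were higher in the libraries labelled knockout, and 24 overlapped. Among all genes tested, 23.4% were lower and 22.4% higher without overlap. These shares cover genes of every level, and the knockout share of abundant genes alone is not given here. In ox the lower share was 29.4% over all genes and 55% over genes averaging 1000 or more normalized reads. The deviation of the 76 genes from the control mean had a median of -0.05 in ko library a and -0.08 in ko library b. The standard deviation over the 73 genes with a mean of 1000 or more normalized reads was 0.090, against 0.055 in ox worms. In knockout at a mean of 10000 or more, it was 0.079 over 65 ribosomal protein genes and 0.200 over 171 other genes. Without library a 21 genes were lower and 1 higher, and without library b 13 were lower and 0 higher in limma, where the lone ko library is assumed to vary like the control pair. In these fits 15.2% and 9.38% of all genes tested were called lower.

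*rps-6* had 30359 and 30253 normalized reads in ko libraries, against 32610 and 32064 in control libraries (limma log2 fold change -0.09, adjusted p = 0.606). *rpl-17* had 22584 and 22175 in ko libraries, against 25470 and 25303 in control libraries (limma log2 fold change -0.18, adjusted p = 0.447). *rpl-4* had 53988 and 54805 in ko libraries, against 60560 and 60308 in control libraries (limma log2 fold change -0.15, adjusted p = 0.471). In all of these the ko libraries were below the control libraries, and none passed the test.

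The lowest values in knockout were those of *rpl-24.2* (-0.38), *rps-28* (-0.25) and *rpl-39* (-0.24), and *rpl-24.2* had 1626 and 2156 normalized reads in ko libraries, against 2430 and 2443 in control libraries. The highest was *rpl-42*, with 50.9 and 62.0 normalized reads in ko libraries, against 31.2 and 21.9 in control libraries. Its log2 fold change was 1.07, did not pass (adjusted p = 0.422 from limma) and rests on few reads. The share of reads on the 76 genes was 9.14% and 9.34% in ko libraries, against 9.31% and 9.32% in control libraries (exact two-sided permutation p = 1). The log2 ratio of large to small subunit reads was 0.361 and 0.398 in ko libraries, against 0.392 and 0.406 in control libraries (exact two-sided permutation p = 0.667). No gene of the elongation, initiation, biogenesis or regulator lists, and no tissue marker, passed in knockout, where 2 of all 15749 genes tested did. The median log2 fold changes of these translation lists in knockout were -0.07, -0.18, -0.12 and -0.08, in that order. Those of the marker lists in knockout were -0.17 (germline), -0.16 (oocyte), -0.10 (embryo), 0.08 (sperm) and -0.38 (epidermis). The other marker medians in knockout were 0.25 (intestine), 0.23 (body wall muscle), 0.21 (neurons) and 0.25 (pharynx). There *rsks-1* was at -0.32 (adjusted p = 0.398 from limma) and *let-363* at 0.22 (adjusted p = 0.455 from limma).

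In a fit of all 6 libraries, added after the data were seen, ox was set against ko directly. There 0 of the 76 genes passed in limma, and 18 of all genes did (0.111%). At an unadjusted p under 0.05, 29 of the 76 genes were lower in ox than in ko, and 6.28% of all genes were. The median of ox minus ko was -0.13 and 69 of 76 values were negative. The smallest adjusted p belonged to *rps-10*, at -0.26 (adjusted p = 0.205 from limma). In its own tables *rps-10* had 20178 and 19803 normalized reads in ox libraries, against 23065 and 23070 in control libraries, and 23659 and 23495 in ko libraries, against 22667 and 22674 in control libraries.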

How the data were processed

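The authors deposited 2 tables, 1 for each comparison, holding the signal of each gene in each library as reads divided by a size factor, here called normalized reads. The submitters' processing notes name HISAT2, featureCounts and DESeq2. Genome build, annotation and strand-specific counting are not given in the sources used here. The tables also hold the authors' group means, log2 fold changes, p-values and adjusted p-values, none of which was used. Once multiplied by the size factor, 100% of values were whole reads within 0.001, and reads of each control library were equal between the tables in 21498 of 21498 shared genes.

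Each table was tested on its own 4 libraries in R 4.3.3 by limma 3.58.1, using log2(normalized reads + 1) and a mean trend. Fold changes are on that scale, which understates changes of low genes. The test took genes with 10 or more normalized reads in 2 or more libraries, which left 15918 genes in the overexpression table and 15749 in the knockout table. Benjamini-Hochberg adjustment ran over all of them, and an adjusted p under 0.05 was called. Shares and ratios per library were compared by exact permutation in Python 3.11.15, and Spearman correlations were taken in scipy 1.17.1. As alternatives, recovered reads were tested in DESeq2 1.42.0 and in edgeR 4.0.16. The fit was also run on simulated reads in which randomly drawn genes were changed. That simulation holds no shift shared by a whole gene family, so it cannot bear on the calls of this family.

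The members and all gene lists were chosen with earlier results of these data known. Of the listed genes, 8 of 11 elongation, 23 of 34 initiation and 26 of 44 biogenesis names were in the tables. The genes named are the 5 members with the lowest significant fold changes, paralog sets, the highest and lowest member per kb in each subunit, ribosomal proteins named otherwise, up to 3 genes per translation list by adjusted p, and *hlh-30*. Named outside that rule, after their values were seen, are *rpl-29*, *rpl-37*, *rpl-39*, *rps-28*, *rps-10*, *W01D2.1*, *Y37E3.8*, *F54D7.6*, *F54D7.7*, *nst-1*, *rol-6* and the genes called under total-read scaling. RefSeq gives 17 of the 76 members another symbol. Of the 76, 17 overlap another listed gene, 10 of them a protein-coding one.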

Additional observations from a re-analysis of the deposited data

How the results depend on the processing

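In overexpression, the count of 53 lower members was 53 with a pseudocount of 0.1, 54 with the minimum asked of every library, 52 with TMM scaling, 50 in edgeR and 50 in DESeq2. It was 11 when scaled to total reads, with a median of -0.11, and 0 with no filter on low values (69 at an unadjusted p under 0.05 in limma), without the mean trend (6), with all 6 libraries in one fit (53) and at 2-fold. In the first 3 of these fits, 0 of 22588, 3 of 15918 and 13 of 16270 genes passed in all. The causes were not tested. Leaving out each library, it ranged from 0 (without either control library) to 64 (without ox replicate 1), the median from -0.23 to -0.16, the large minus small median from -0.00574 to 0.0117 and the SD from 0.0644 to 0.115. The large minus small median was 0.0166 with the 5 ribosomal proteins named otherwise and 0.0166 with 9 left out by the rule. Over members averaging 1000 or more normalized reads it was -0.00205, with an SD of 0.0546. The last 2 sets were chosen after seeing the data.

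In knockout, 6 members were lower and 1 higher at an unadjusted p. Scaled to total reads, the median was -0.0164. Leaving out each library, lower members ranged from 0 to 21 (0% to 15.2% of all genes tested), higher from 0 to 1, the median from -0.0810 to -0.0482, the large minus small median from -0.0356 to -0.0148 and the SD from 0.151 to 0.182. The large minus small median was -0.0231 with 5 or with 9 more genes, and the SD 0.0899 over the abundant members. The median of all members stayed negative under these settings in both comparisons.

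The ox and control libraries share replicate numbers, which the labels do not tie to a shared batch. With the replicate block, 57 members were lower. Deviations of same-numbered libraries had a correlation of 0.03 over 15918 genes and -0.60 over the 76 members. No paired analysis was possible for knockout because both ko samples have the same number in their descriptions, so the numbered columns cannot be tied to a replicate. With 2 libraries per group, no exact test could reach 0.05, and fold changes of *rpl-37* and *rpl-42* rest on under 100 normalized reads per library.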
